A study of Mus musculus with 36 samples.

Results

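The Wnt feedback genes are *Axin2*, *Nkd1*, *Nkd2*, *Notum*, *Sp5*, *Sp8*, *Apcdd1*, *Rnf43* and *Znrf3*, a set named as feedback targets of canonical Wnt signaling. Most of them are negative regulators or repressors of the pathway. They were chosen by symbol, without reference to their measured values, as the gene rows whose Ensembl identifier carries one of these 9 names. They are 9 of 30125 genes with a row in at least 1 of 3 tables of normalized counts from cultured mouse nephron progenitor cells (NPCs), and they are followed here across doses of CHIR and across the removal of β-catenin or of the Tcf/Lef factors. *Sp8* had a row in 1 table, the other 8 genes had a row in every table.

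In canonical Wnt signaling, a cytoplasmic destruction complex that contains the kinase GSK3 marks β-catenin for degradation. When a Wnt ligand engages Frizzled and LRP receptors, or when a small molecule such as CHIR99021 (CHIR) inhibits GSK3, β-catenin is stabilized, enters the nucleus and activates target genes through Tcf/Lef DNA-binding partners. Several of those targets turn the pathway back down, and their transcripts are widely read as pathway output. In the kidney, Wnt9b from the ureteric epithelium acts on NPCs, where lower β-catenin activity accompanies self-renewal and higher activity accompanies the start of nephron formation. CHIR acts below the receptor, so feedback at the receptor or the ligand is not on the path from CHIR to β-catenin.

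The genes act at different levels. Axin2 is a scaffold of the destruction complex, and Nkd1 and Nkd2 are cytoplasmic antagonists that bind Dishevelled. Znrf3 and Rnf43 are transmembrane E3 ubiquitin ligases that clear Frizzled from the cell surface. Notum is a secreted carboxylesterase that removes the lipid from Wnt ligands, and Apcdd1 is a membrane glycoprotein that inhibits Wnt signaling at the surface. Sp5 and Sp8 are zinc finger transcription factors, and Sp5 represses Wnt targets.

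Messenger RNA was sequenced from 36 libraries in 15 groups of 2 or 3 libraries (9 groups of 2 and 6 of 3), all of primary NPCs isolated from embryonic mouse kidneys, depleted of other cell types with antibody-coated beads and seeded in low CHIR. Wild-type NPCs were cultured in no CHIR (0 µM), low CHIR (1.25 µM) or high CHIR (5 µM), with 3 libraries each. For removal of β-catenin, NPCs homozygous for a conditional *Ctnnb1* allele were given Cre mRNA or not, and NPCs of the Cas9-eGFP genotype were given *Ctnnb1* guides or a GFP guide, each in low and in high CHIR with 2 libraries a group. For the quadruple knockout (QKO), Cas9-eGFP NPCs were given guides to *Tcf7*, *Lef1*, *Tcf7l1* and *Tcf7l2* or the GFP guide, in low and high CHIR, with 3 libraries a group except QKO in low CHIR, which had 2. Transfected cells were sorted on co-transfected mCherry, so each knockout is a mixed population of edited cells and not a clone, and the QKO experiment and its GFP controls had a longer knockout period than the *Ctnnb1* guides. The GFP guide also cuts in its control cells, since they carry eGFP. The labels used here give no separate litters or cultures for the numbered replicates, so the p-values measure the spread between libraries, which may be technical.

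Libraries held between 13089780 and 76071568 reads on genes. NPC markers (8 genes, among them *Six2*, *Cited1* and *Osr1*) summed to 10730 to 17000 normalized counts in wild-type low CHIR and to 14490 to 31140 in the low-CHIR groups of the other tables, and to 361.9 to 712.2 in wild-type high CHIR, where *Six2* was 60.5, 79.56 and 65.43. *Ctnnb1* transcript was lower with the guides in high CHIR, at 1630 and 1270 normalized counts against 2632 and 2701 with the GFP guide (limma log2 fold change −0.89, adjusted p = 0.0429), and was 2254 and 2583 with Cre against 2423 and 2207 without, where the excised part of the gene cannot be told from the rest in a count per gene. In the QKO libraries in high CHIR, *Tcf7* was 109.5, 179.7 and 127.3 against 534, 535 and 267.9 (limma log2 fold change −1.64, adjusted p = 0.0175). *Lef1* was 254.7 to 512.9 against 1144 to 2743, and *Tcf7l1* and *Tcf7l2* overlapped their controls. For each factor the paper reports protein loss with individual guides by immunostaining, which transcript counts do not measure. The reported loss was incomplete and smaller for Tcf7 than for the other factors, and in the QKO each guide was used at a lower dose. The Tcf/Lef protein left in the QKO libraries was not measured here. *Lef1* and *Tcf7* also fell after β-catenin removal in high CHIR, so editing and lower pathway output cannot be told apart in their counts. A library that stands apart is replicate 3 of wild-type high CHIR, in which *Wif1*, a secreted Wnt inhibitor, was 10159 against 545.6 and 388 in the other two and *Fzd10* 2176 against 152.4 and 167.5, while *Six2* and *Fzd6* were level with them. Most wild-type results of the feedback genes are therefore given with and without it.

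The promoters were compared for a shared sequence feature that the choice of genes did not use. Tcf/Lef proteins bind a short motif, searched here as CTTTGAT or CTTTGAA on either strand in RefSeq promoter windows (build GRCm38.p6, 250 bases before to 50 after an annotated start). The table of windows held 6 of the 9 genes, in 9 windows. *Notum*, *Apcdd1* and *Znrf3* were not matched. The motif was in 2842 of 32851 windows over all genes (8.65%), and in 2 of the 9 windows here. The *Sp5* window, chr2:70474673-70474972 on the + strand, is shown because it holds a match, in capitals, from base −104 to −98 relative to the start and in the direction of transcription.
Sp5: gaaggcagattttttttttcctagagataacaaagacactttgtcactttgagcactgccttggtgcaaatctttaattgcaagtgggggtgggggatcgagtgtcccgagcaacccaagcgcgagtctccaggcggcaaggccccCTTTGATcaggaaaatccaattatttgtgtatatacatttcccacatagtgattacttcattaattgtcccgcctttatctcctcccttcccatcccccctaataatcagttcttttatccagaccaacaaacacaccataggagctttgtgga
The *Axin2* window, chr11:108920099-108920398 on the + strand, is shown beside it because *Axin2* is a gene commonly used as a canonical readout and these letters do not occur in it.
Axin2: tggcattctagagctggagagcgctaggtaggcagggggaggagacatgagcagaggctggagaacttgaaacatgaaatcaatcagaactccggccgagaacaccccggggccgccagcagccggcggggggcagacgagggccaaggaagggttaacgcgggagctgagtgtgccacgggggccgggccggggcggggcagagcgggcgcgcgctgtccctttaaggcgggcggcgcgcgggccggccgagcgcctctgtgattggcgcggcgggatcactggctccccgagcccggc
The window of *Sp8*, chr12:118846983-118847282 on the + strand, holds the other match, from −51 to −45 on the opposite strand, and is shown because its gene had almost no reads in these cultures.
Sp8: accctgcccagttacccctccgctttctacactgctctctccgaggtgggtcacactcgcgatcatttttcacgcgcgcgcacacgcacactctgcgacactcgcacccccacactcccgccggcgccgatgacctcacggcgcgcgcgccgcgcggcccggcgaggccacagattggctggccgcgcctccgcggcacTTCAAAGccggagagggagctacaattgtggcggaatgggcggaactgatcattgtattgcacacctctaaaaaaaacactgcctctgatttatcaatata
No match was found in the windows of *Nkd1* (chr8:88527383-88527682), *Nkd2* (chr13:73847582-73847881) or *Rnf43*. A match of letters is a description of the window and says nothing of binding.

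The cytoplasmic antagonists were higher in high than in low CHIR in wild-type NPCs. *Axin2* (ENSMUSG00000000142) had 136.7, 105.4 and 159.3 normalized counts in the 3 low-CHIR libraries and 537.8, 432.7 and 3638 in the 3 high-CHIR libraries. Every high-CHIR library was above every low-CHIR library, with replicate 3 far above the other two. The log2 fold change was 2.83 (SE 0.65, limma adjusted p = 0.0204), and it was 1.86 (SE 0.285, adjusted p = 0.00109) without that replicate. *Nkd2* had 70.96, 121.5 and 77.85 in low and 806.7, 268 and 652.4 in high CHIR, again with no overlap and here without an extreme replicate 3 (log2 fold change 2.56, SE 0.51, adjusted p = 0.00962). *Nkd1* had 147.2, 132.9 and 136.5 in low and 344, 266.6 and 9479 in high CHIR. Its groups did not overlap either, with 1 library far above the rest, and its log2 fold change of 2.78 (SE 1.09) did not pass limma (adjusted p = 0.145), while edgeR on recovered reads called it (4.59, adjusted p = 0.0438). Without replicate 3 the *Nkd1* change was 1.12 (SE 0.40) and also missed the threshold (adjusted p = 0.101). In bulk libraries such as these, a change in the share of cells that express a gene and a change in RNA per cell cannot be told apart.

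The membrane ligases differed in level and in the size of their change. *Znrf3* had 2120, 1589 and 1491 in low and 3409, 3551 and 4976 in high CHIR. The groups were separate and the change modest (log2 fold change 1.19, SE 0.24, adjusted p = 0.0106; 1.02 without high-CHIR replicate 3, adjusted p = 0.0134). *Rnf43* had 18.4, 18.04 and 13.17 in low and 64.98, 50.25 and 914.1 in high CHIR. Its groups were separate too, and its change of 3.07 missed limma with all libraries (SE 0.91, adjusted p = 0.0586) and passed without replicate 3 (1.74, SE 0.51, adjusted p = 0.0433). edgeR called it with all libraries (4.36, adjusted p = 0.0266).

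*Notum* and *Sp5* went from close to no reads to clear expression. *Notum* had 3.94, 0 and 2.40 in low and 133.3, 72.58 and 5140 in high CHIR, and *Sp5* had 0, 6.65 and 1.198 in low and 141.2, 87.94 and 1389 in high CHIR. No low-CHIR library reached the lowest high-CHIR library for either gene. Fitted log2 fold changes on log2(normalized count + 1) were 7.18 for *Notum* (SE 1.37, adjusted p = 0.00789) and 6.67 for *Sp5* (SE 1.04, adjusted p = 0.00281), and 5.28 and 5.46 without replicate 3. *Apcdd1* had 42.05, 37.98 and 28.74 in low and 321.6, 100.5 and 5038 in high CHIR. Its libraries separated by dose, and its change of 3.90 (SE 1.10) was just past the test (adjusted p = 0.0494; 2.30 and 0.0144 without replicate 3). *Sp8* had no row in the wild-type table, whose rows hold at least 10 reads in total.

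**Figure D1:**
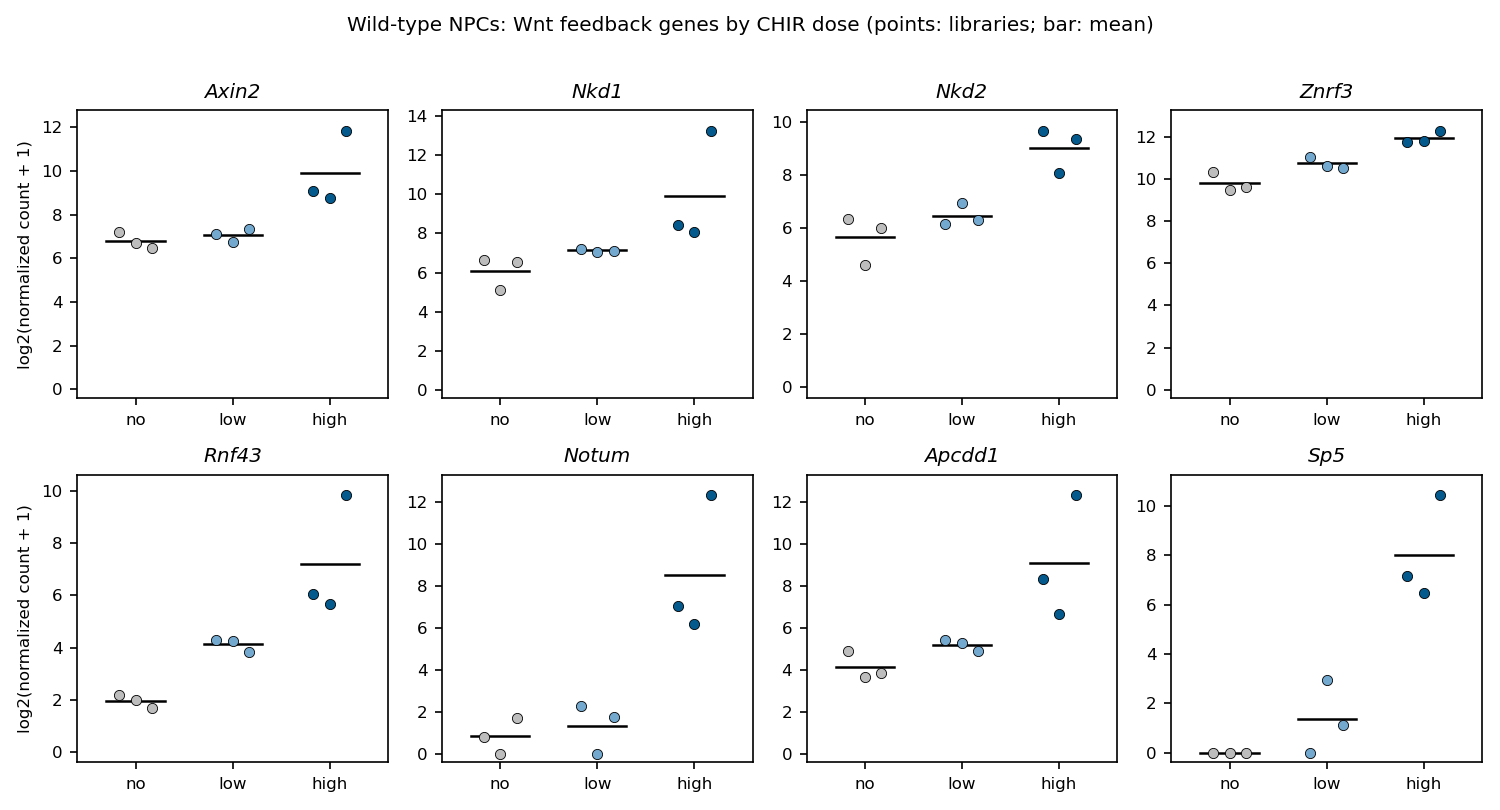
Expression of the 8 genes of the wild-type table, as log2(normalized count + 1) on the vertical axis, in no, low and high CHIR (3 libraries each; points are libraries, bars are means). In each panel all 3 high-CHIR points lie above all 3 low-CHIR points, and 1 high-CHIR library lies far above the other two for *Axin2*, *Nkd1*, *Notum*, *Sp5*, *Apcdd1* and *Rnf43*.

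A gene was called when its limma adjusted p was below 0.05 and its log2 fold change at least 0.5 in size, among 17411 wild-type genes whose mean was at least 10 normalized counts. Of the 8 Wnt feedback genes tested, 6 were called higher in high CHIR, against 5.33% of all genes called higher. *Notum*, *Sp5* and *Rnf43* passed the filter only through their high-CHIR libraries. *Notum* and *Sp5* so had to differ. *Rnf43* was just under the filter without those libraries (mean 9.72) and averaged 16.5 in low CHIR, so the filter did not force its difference. Of the other 5, limma called *Axin2*, *Nkd2*, *Apcdd1* and *Znrf3* and not *Nkd1*. Their median log2 fold change was 2.78, against 0.01 for all genes, and all 3 high-CHIR libraries were above all 3 low-CHIR libraries for 5 of these 5 and for 14.8% of all genes. edgeR called 8 of the 8, and DESeq2 called 5 and gave no adjusted p for *Nkd1*, *Notum* and *Rnf43*. The number called was 6, 7 and 7 without high-CHIR replicate 1, 2 and 3, and 4, 4 and 3 without low-CHIR replicate 1, 2 and 3. *Nkd2*, *Notum* and *Sp5* were called in each of those 6 fits. Beside these changes, the 8 NPC markers were all called lower and 3 of 7 early nephron markers higher (1 lower), and ureteric epithelium markers summed to 372 to 696.9 in high and 110.1 to 521.7 in low CHIR. Their part in the feedback gene changes was not tested.

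Between no and low CHIR, none of the genes passed the test. *Znrf3* had 1293, 717.2 and 799.8 normalized counts in no CHIR, all below the 1491 of the lowest low-CHIR library. *Rnf43* had 3.57, 2.93 and 2.23, all below 13.17, and *Nkd1* had 98.14, 33.66 and 91.6, all below 132.9. These were the 3 of 8 genes whose no-CHIR libraries all lay below the low-CHIR libraries, which 16.8% of all genes did. *Axin2* had 147.8, 102.5 and 87.13 in no CHIR, inside and around its low-CHIR range. *Nkd2* had 80.8, 23.42 and 62.56, *Apcdd1* 28.8, 11.71 and 13.4, *Notum* 0.765, 0 and 2.23, and *Sp5* no read in any no-CHIR library. Those groups overlapped or touched with low CHIR.

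By limma 0 of 8 were called between no and low CHIR, where 4.97% of all genes were called in either direction. At an unadjusted p below 0.05 there were 2, *Rnf43* (log2 fold change −2.17, adjusted p = 0.194) and *Znrf3* (−0.92, adjusted p = 0.0564). Over all genes, 3040 of 17411 had such a limma p together with a log2 change of at least 0.5. edgeR called none and DESeq2 called *Znrf3* (−0.88, adjusted p = 0.0149), and without no-CHIR replicate 1 limma called it as well (adjusted p = 0.019). Of 9 other Wnt targets tested, 3 were lower in no than in low CHIR by limma, *Tnfrsf19* (−3.51, adjusted p = 0.0146), *Lef1* (−2.02, adjusted p = 0.0474) and *Bambi* (−1.26, adjusted p = 0.0365), and *Myc* was higher (1.05, adjusted p = 0.0191). *Axin2*, at −0.26 (adjusted p between 0.595 and 0.967 over the alternatives), showed no change that these libraries could detect.

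The dose response recurred in the 3 sets of control NPCs that had been transfected. In NPCs with the conditional allele and no Cre, *Axin2* had 115.5 and 64.1 in low and 192.4 and 324.7 in high CHIR, *Notum* 0 and 0.916 against 38.66 and 49.8, and *Sp5* no read against 34.98 and 44.61. With the GFP guide beside the *Ctnnb1* guides, *Axin2* had 74.51 and 48.7 against 191.1 and 186.7, *Notum* 0.994 and 1.082 against 35.22 and 47.86, and *Sp5* 0 and 2.16 against 35.97 and 40.2. With the GFP guide beside the QKO, *Axin2* had 83.16, 78.95 and 56.19 against 480.5, 345.9 and 196.7, *Notum* 1.22, 4.93 and 0.865 against 89.83, 24.27 and 8.51, and *Sp5* 0, 2.96 and 2.59 against 94.78, 245.7 and 86.12. For these 3 genes every high-CHIR library was above every low-CHIR library of its set, and no control set held a library like wild-type replicate 3.

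All 7 genes tested were called higher in high CHIR without Cre, against 2.80% of all genes, and all 7 with the GFP guide beside the *Ctnnb1* guides, against 2.98%. In those tables *Notum* and *Sp5* again passed the filter only through high-CHIR libraries, while the other 5 passed without them. *Axin2* rose by 1.53 (adjusted p = 0.0384) and 1.63 (adjusted p = 0.0299) on the log2 scale, *Nkd1* by 2.46 and 2.64, *Nkd2* by 2.32 and 2.44, *Apcdd1* by 2.13 and 3.03, and *Znrf3* by 1.33 and 1.30, by limma. With the GFP guide beside the QKO, 6 of 7 were called, against 6.98% of all genes, and *Apcdd1* was not (1.74, adjusted p = 0.0701). *Notum* and *Sp5* were there, too, carried past the filter by high-CHIR libraries. In that table the replicate numbers pair the libraries, and with the replicate as a block *Apcdd1* passed as well (adjusted p = 0.00769). Leaving out 1 library lowered the number called to between 1 and 5 without Cre and between 3 and 5 with the GFP guide, with 1 left, *Znrf3*, when no Cre high-CHIR replicate 2 was dropped. *Notum* and *Sp5* fell under the filter in some of these fits. Where tested, *Notum* kept its call in 3 of 3 fits in either set, and *Sp5* in 2 of 2 without Cre and 1 of 2 with the GFP guide. In the QKO controls it gave 4 to 7, with 4 without high-CHIR replicate 1 and 7 without high-CHIR replicate 3. *Rnf43* was under the filter in both tables, at 20.25 and 7.26 in high against 4.44 and 0 in low CHIR without Cre, and *Sp8*, in the QKO table alone, had 0 to 3.03 normalized counts in the GFP controls of either dose.

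Over the 4 control sets together, an exact permutation test was made for 14952 genes by exchanging low- and high-CHIR libraries within each set (14400 arrangements, two-sided). In the permutation tests a gene was called on an adjusted p below 0.05 alone, with no threshold on the log2 change. Their shares of genes called are therefore not on the same rule as those of limma. Of these genes, 14.5% were called higher, and so were 5 of the 5 feedback genes that pass the filter without high-CHIR libraries. *Notum* and *Sp5* were called as well, but pass the filter only through high-CHIR libraries and had to be higher. The mean log2 difference between high and low CHIR was 5.54 for *Sp5*, 4.96 for *Notum*, 2.70 for *Apcdd1*, 2.43 for *Nkd1*, 2.28 for *Nkd2*, 2.03 for *Axin2* and 1.26 for *Znrf3*. The adjusted p was 0.0018 for each but *Apcdd1*, which had 0.00274, and 0.000139 was the smallest unadjusted p the arrangements could give. *Znrf3* had the narrowest range over the sets, from 1.19 to 1.33, and *Notum* the widest, from 3.26 to 7.18. All 7 genes were higher in 4 of 4 sets, and leaving out any 1 set kept all 7 past the test.

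With Cre in high CHIR, 6 of the 7 feedback genes tested were called lower by limma, while edgeR on recovered reads, without Cre replicate 1, called *Znrf3* alone and DESeq2 called *Axin2*, *Nkd2* and *Znrf3*. With Cre, *Axin2* had 61.59 and 75.28 normalized counts against 192.4 and 324.7 without, and *Nkd2* had 49.47 and 70.43 against 222.8 and 311.2. *Nkd1* had 54.52 and 126.3 against 213.6 and 347.5. All 3 cytoplasmic antagonists were lower in both Cre libraries than in either control. *Axin2* fell by 1.86 (adjusted p = 0.0123), *Nkd1* by 1.70 (adjusted p = 0.0384) and *Nkd2* by 2.14 (adjusted p = 0.00958) on the log2 scale by limma. *Znrf3* had 1761 and 1487 against 4969 and 3903, well clear of its controls, and fell by 1.44 (SE 0.16, adjusted p = 7.01e-05). *Notum* had 3.03 and 4.86 against 38.66 and 49.8, and *Sp5* 0 and 4.86 against 34.98 and 44.61. These were the largest changes of the 7, with log2 fold changes of −3.21 (adjusted p = 0.00727) and −4.07 (adjusted p = 0.0151). *Apcdd1* had 32.31 and 49.78 against 75.48 and 143.2, lower in both libraries, and its difference of −1.35 did not pass the test (adjusted p = 0.177).

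With the *Ctnnb1* guides, *Znrf3* had 2163 and 1960 normalized counts against 4094 and 4832 with the GFP guide, *Notum* 5.53 and 4.40 against 35.22 and 47.86, and *Sp5* 0.921 and 2.64 against 35.97 and 40.2. Both guide libraries were below both controls for each. *Znrf3* fell by 1.11 (adjusted p = 0.00118), *Notum* by 2.83 (adjusted p = 0.0257) and *Sp5* by 3.88 (adjusted p = 0.0318) by limma. *Axin2* had 106.8 and 73.94 against 191.1 and 186.7, *Nkd1* 138.1 and 97.7 against 311.7 and 285.2, and *Nkd2* 132.6 and 66.9 against 370.2 and 176.1. Those 3 antagonists were lower without overlap, and their differences of −1.08, −1.35 and −1.43 did not pass (adjusted p = 0.167, 0.122 and 0.096). *Apcdd1* was the one gene whose libraries overlapped, with 95.77 and 30.81 against 188.8 and 89.02.

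**Figure D2:**
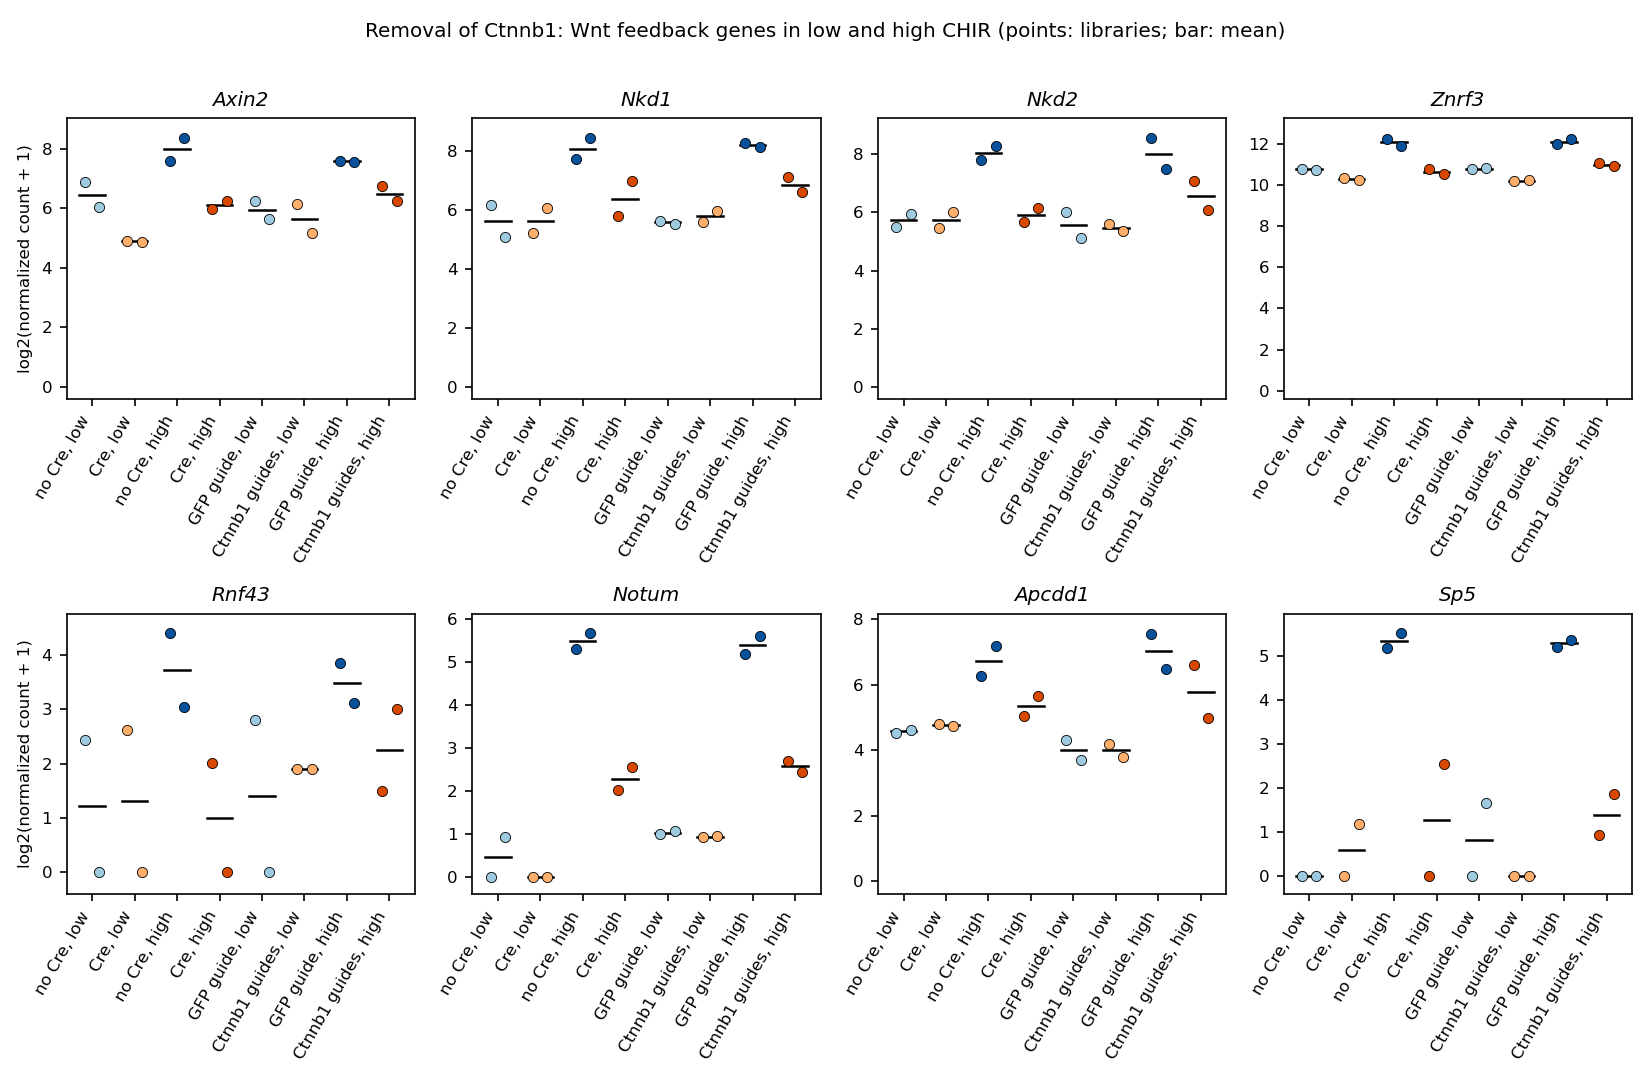
Expression of 8 genes as log2(normalized count + 1) on the vertical axis, in NPCs without and with Cre and with GFP or *Ctnnb1* guides, each in low and high CHIR (2 libraries each; points are libraries, bars are means). In high CHIR both libraries after removal lie below both controls in every panel except the guides for *Apcdd1*, where 95.77 lies above the lower control of 89.02, while in low CHIR most points overlap.

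In high CHIR, 6 of 7 genes tested were called lower with Cre, against 2.75% of all genes, and 3 of 7 with the *Ctnnb1* guides, against 1.64%. *Notum* and *Sp5* entered these tests only through high-CHIR controls. Of the 5 other genes, 4 were called with Cre and *Znrf3* alone with the guides. Both libraries after removal were below both controls for 5 of these 5 with Cre, which held for 23.1% of all genes, and for 4 of 5 with guides, which held for 31.2%. The Cre calls depended on single libraries, with 4 and 1 left without control replicate 1 and 2 and 1 and 6 without Cre replicate 1 and 2. Without any 1 of the 4 guide or GFP libraries, *Znrf3* was the 1 gene called. *Notum* and *Sp5* were under the filter in some of these fits with Cre and with guides. In mean normalized counts the Cre libraries kept 6.10% of the control level of *Sp5*, 8.92% of *Notum*, 22.5% of *Nkd2*, 26.5% of *Axin2*, 32.2% of *Nkd1*, 36.6% of *Znrf3* and 37.6% of *Apcdd1*. The guide libraries kept 4.68% of *Sp5* and 12.0% of *Notum*, and between 36.5% and 47.9% of the other 5. *Rnf43*, too low to test, had 3.03 and 0 with Cre against 20.25 and 7.26, and 1.84 and 7.04 with guides against 13.49 and 7.66.

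NPC markers moved the other way in these libraries, with 7 of 8 called higher with Cre and 6 of 8 with guides, and sums of 16200 to 21860 and 17720 to 18920 against 2853 to 4797 in both sets of controls. Of 5 endothelial markers, *Emcn* made up most of the sum after removal in high CHIR (523.3 to 1041 against 35.9 to 121.4 in controls). The 5 summed to 557.3 to 923.9 with Cre and to 625.8 to 1055 with guides. *Pecam1*, *Cdh5* and *Tie1* were at most 10.1, 5.41 and 6.44 in any library of the table. Whether either shift bears on the feedback genes was not tested.

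In low CHIR, no feedback gene passed the test after β-catenin removal. *Axin2* had 28.98 and 28.32 with Cre against 115.5 and 64.1 without, the largest difference among the feedback genes in that comparison (−1.55, adjusted p = 0.161), and 69.49 and 34.9 with guides against 74.51 and 48.7. *Znrf3* had 1303 and 1205 with Cre against 1800 and 1701, and 1176 and 1230 with guides against 1795 and 1811. Its libraries after removal were below both controls in both experiments (−0.48, adjusted p = 0.28, and −0.58, adjusted p = 0.802). *Nkd1*, *Nkd2* and *Apcdd1* differed by between −0.09 and 0.21 on the log2 scale in either experiment, and *Notum* and *Sp5* were at 2.16 or below in every library.

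By limma no feedback gene was called with Cre, where 0.328% of all genes were called, or with the *Ctnnb1* guides, where 0.0536% were. At an unadjusted p below 0.05 there were 2 with Cre, *Axin2* and *Znrf3*, and 1 with guides, *Znrf3*. Of 16780 genes, 1411 with Cre and 490 with guides had such a limma p and a log2 change of at least 0.5. With Cre, *Znrf3* did not reach that size. With Cre, edgeR called none and DESeq2 called *Axin2* (−1.63, adjusted p = 0.0478). For the guides both of those fits lacked GFP guide low-CHIR replicate 1, which left 1 control library.

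The CHIR response was then measured within the Cre libraries and within the *Ctnnb1* guide libraries. With Cre, *Axin2* had 28.98 and 28.32 in low and 61.59 and 75.28 in high CHIR, and *Notum* no read in low and 3.03 and 4.86 in high CHIR. Both were higher in each high-CHIR library, as were *Apcdd1* and *Znrf3*, while *Nkd1*, *Nkd2* and *Sp5* overlapped. Such separation held for 3 of the 5 genes that pass the filter without high-CHIR libraries and for 14.5% of all genes. None of the 7 was called by limma, against 0.292% of all genes, and 3 (*Axin2*, *Notum* and *Znrf3*) had an unadjusted p below 0.05. Of 16780 genes, 532 had such a limma p and a log2 change of at least 0.5, a size *Znrf3* did not reach. The edgeR and DESeq2 fits held 1 library with Cre in high CHIR, so they had no spread within that group. With the *Ctnnb1* guides 5 of these 5 were higher in both high-CHIR libraries, which held for 22.5% of all genes. By limma *Znrf3* alone was called (0.78, adjusted p = 0.0406), against 0.626% of all genes called higher. *Nkd1*, *Nkd2*, *Notum* and *Apcdd1* also had an unadjusted limma p below 0.05. Over all genes, 1274 of 16780 had such a p and a log2 change of at least 0.5. The call on *Znrf3* was lost when any 1 of the 4 libraries was left out.

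Testing the difference between the 2 CHIR responses directly gave no calls among the feedback genes by limma without a block. For Cre the interaction was −4.66 for *Sp5* (adjusted p = 0.172), −2.15 for *Nkd2* (adjusted p = 0.21) and −0.96 for *Znrf3* (adjusted p = 0.0718), with 0.995% of all genes called. For the *Ctnnb1* guides it was between −0.53 and −3.05 for all 7, with 0.518% of all genes called. At an unadjusted p below 0.05 there were 5 genes for Cre and 4 for guides. Of 16780 genes, 1420 for Cre and 1139 for guides had such a limma p and a log2 difference of at least 0.5. The edgeR and DESeq2 fits lacked Cre high-CHIR replicate 1 and GFP guide low-CHIR replicate 1, which left 1 library in each of those groups. By DESeq2 the *Znrf3* interaction for Cre was −1.11. *Axin2* was the gene with the smallest Cre interaction, −0.31, since it was lower with Cre at both doses. Whether a removal effect in high CHIR is larger than in low CHIR is therefore not shown for the single genes by limma without a block. With the replicate number as a block, limma called the Cre interaction for *Nkd2* (−2.15, adjusted p = 0.0078) and *Znrf3* (−0.96, adjusted p = 0.013). It called no interaction for the guides, and the labels do not say what a replicate number shares.

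In QKO NPCs in high CHIR, the 7 feedback genes tested had lower means than their controls, with *Sp5* farthest below and *Znrf3* nearest, and *Sp8*, at 0.869, 3.12 and 1.93 against 0, 3.03 and 1.06, and *Rnf43*, at 0, 4.15 and 2.89 against 6.59, 9.10 and 4.25, were too low to test. *Sp5* had 5.22, 28.04 and 41.46 normalized counts in QKO against 94.78, 245.7 and 86.12, with every QKO library below every control. *Nkd1* had 69.53, 57.13 and 93.53 against 371.7, 142.6 and 121.2, and *Apcdd1* had 36.51, 41.55 and 26.997 against 258, 139.6 and 42.53. Both were lower without overlap, *Apcdd1* by a narrow margin. *Axin2* had 155.6, 192.2 and 190.9 against 480.5, 345.9 and 196.7, also separate but near the lowest control. *Nkd2*, with 90.39, 70.63 and 60.74 against 406.3, 114.3 and 59.54, and *Notum*, with 16.51, 10.39 and 7.71 against 89.83, 24.27 and 8.51, overlapped at the third control. *Znrf3* had 2368, 2558 and 2533 against 2566, 2987 and 2868, lower in each library but almost touching.

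**Figure D3:**
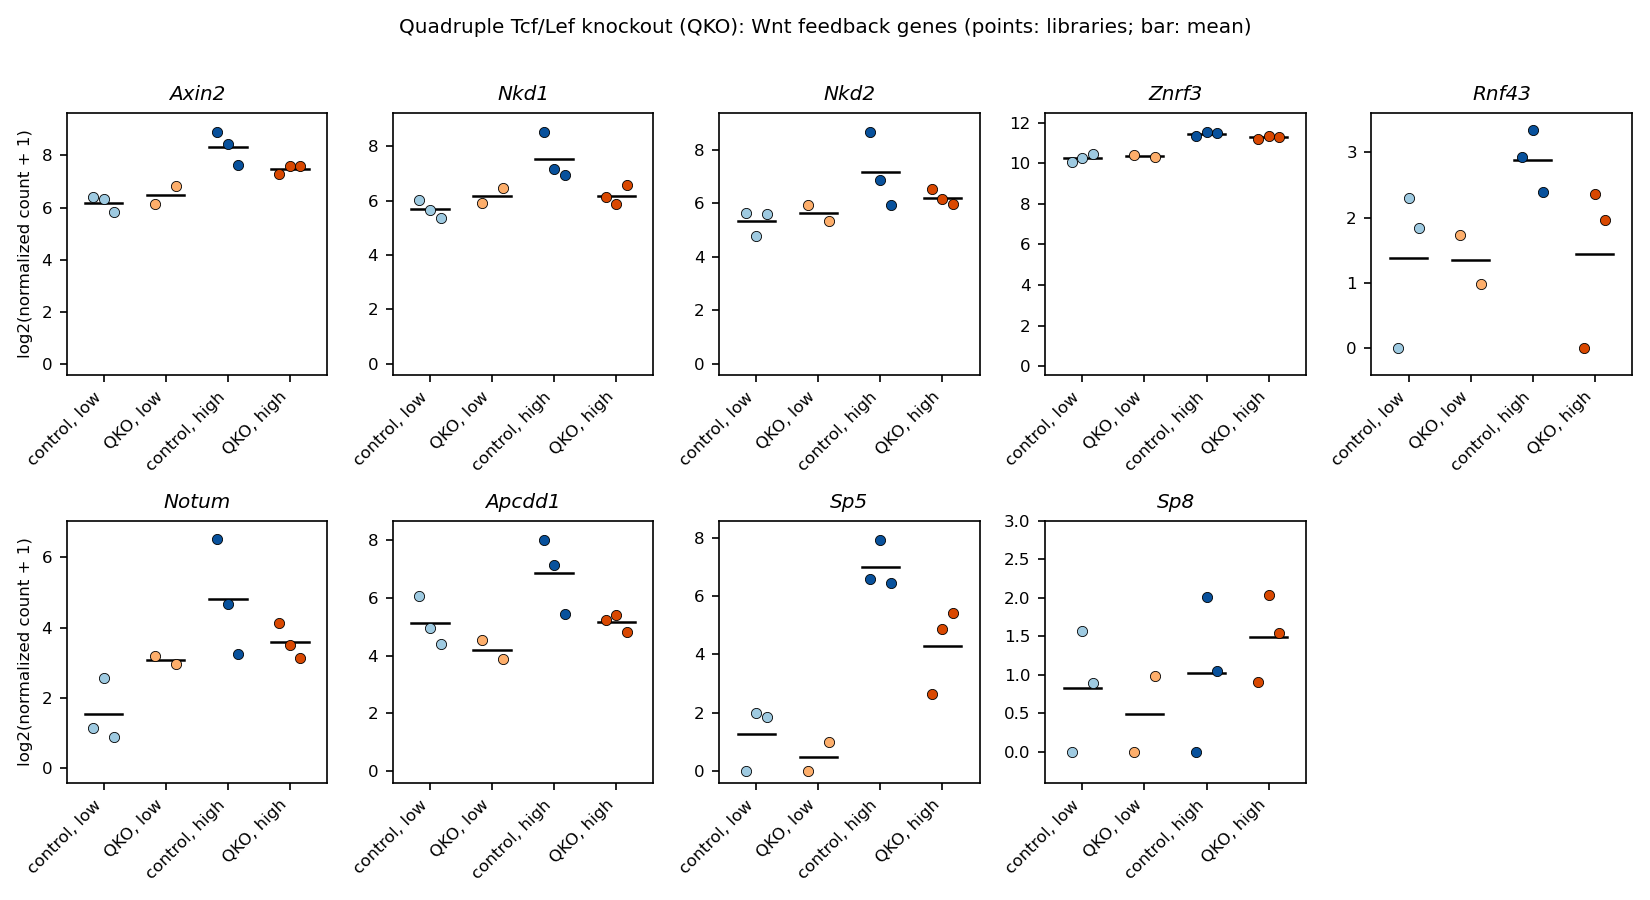
Expression of the 9 genes as log2(normalized count + 1) on the vertical axis, in control and QKO NPCs in low and high CHIR (3 libraries a group, 2 for QKO in low CHIR; points are libraries, bars are means). *Sp5* has the largest difference between control and QKO in high CHIR (−2.69 on the log2 scale) and *Znrf3* the smallest (−0.17), *Sp8* stays at 3.12 normalized counts or below, and *Rnf43* is highest in high-CHIR controls, at 4.25 to 9.10 normalized counts.

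None of the 7 genes tested was called lower in QKO in high CHIR by limma without a block, against 0.491% of all genes. Of the 7, 4 (*Axin2*, *Nkd1*, *Sp5* and *Apcdd1*) had an unadjusted p below 0.05. Over all genes, 1770 of 15878 had such a limma p and a log2 change of at least 0.5, in either direction. The log2 fold changes were −2.69 for *Sp5* (SE 0.78, adjusted p = 0.108), −1.72 for *Apcdd1* (SE 0.59, adjusted p = 0.189), −1.36 for *Nkd1* (SE 0.39, adjusted p = 0.109), −0.84 for *Axin2* (adjusted p = 0.24) and −0.17 for *Znrf3* (adjusted p = 0.573). With the replicate number as a block, which pairs libraries that deviate together, limma called 3 of them lower: *Sp5* (adjusted p = 0.00977), *Apcdd1* (0.0219) and *Nkd1* (0.0458), and calls over all genes rose from 326 higher and 78 lower to 841 and 340. edgeR called none and DESeq2 called *Nkd1* (−1.75, adjusted p = 0.0112). Every QKO library was below every control for 4 of the 5 genes that pass the filter without high-CHIR libraries, and for 8.80% of all genes. Without high-CHIR control replicate 3, which is the lowest control for 6 of the 7 genes tested, *Apcdd1* was called (adjusted p = 0.0274). High-CHIR control replicate 1 held 2474 normalized counts of *Lyz2*, a myeloid gene, and 2835 of blood markers in sum against 30.85 to 83.65 in the other libraries of the table. Without it the limma differences were smaller for *Nkd2* (−0.176), *Axin2* (−0.543), *Nkd1* (−0.861) and *Apcdd1* (−1.14). They were larger for *Sp5* and for *Znrf3* (−0.236), *Notum* fell under the filter, and none of the genes was called. The part of the blood markers in these differences was not tested. NPC markers were higher in QKO, with 7 of 8 called.

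In low CHIR the QKO differences were within the spread of the libraries. *Axin2* had 68.54 and 112.4 in QKO against 83.16, 78.95 and 56.19, *Nkd1* 59.25 and 86.98 against 64.82, 49.35 and 39.77, and *Znrf3* 1334 and 1258 against 1065, 1213 and 1396. *Notum*, at 8.13 and 6.84 against 1.22, 4.93 and 0.865, was the gene whose QKO libraries were both above the controls. No feedback gene was called by limma, edgeR or DESeq2 and none had an unadjusted limma p below 0.05. Over all genes limma called 0.00630% (1 gene). Of 15878 genes, 570 had an unadjusted limma p below 0.05 together with a log2 change of at least 0.5. With the replicate block still no feedback gene was called, and over all genes 15 were higher and 1 lower.

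Part of the CHIR response remained in QKO. *Sp5* had 0 and 0.977 in low and 5.22, 28.04 and 41.46 in high CHIR, and *Znrf3* had 1334 and 1258 against 2368, 2558 and 2533. Both were higher in every high-CHIR library and both were called by limma, *Sp5* by 3.81 (adjusted p = 0.0432) and *Znrf3* by 0.94 (adjusted p = 0.00425), against 1.42% of all genes called higher. With the replicate block both calls stood (adjusted p = 0.00621 and 0.00173), and over all genes 506 were higher and 446 lower against 225 and 178 without it. *Nkd1* was level, at 59.25 and 86.98 in low and 57.13 to 93.53 in high CHIR (0.00, adjusted p = 0.999). *Sp5* passes the filter only through high-CHIR libraries. Of the 5 genes that pass without them, the high-CHIR libraries were all above the low-CHIR libraries for 4, *Nkd1* being the exception, and for 18.3% of all genes. The *Sp5* call was lost without QKO low replicate 1 or 3 or high replicate 2 or 3, and *Znrf3* was lost without low replicate 3. The interaction of QKO and CHIR was called for none of the 7 genes by limma, edgeR or DESeq2, against 0.126% of all genes by limma. An unadjusted limma p below 0.05 was found for 3 genes (*Axin2*, *Nkd1* and *Notum*). Over all genes, 786 of 15878 had such a p and a log2 difference of at least 0.5. With the replicate block none of the 7 was called either, and over all genes 98 were higher and 38 lower against 17 and 3 without it. For *Znrf3* the interaction was −0.26 (adjusted p = 0.9999).

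**Figure D4:**
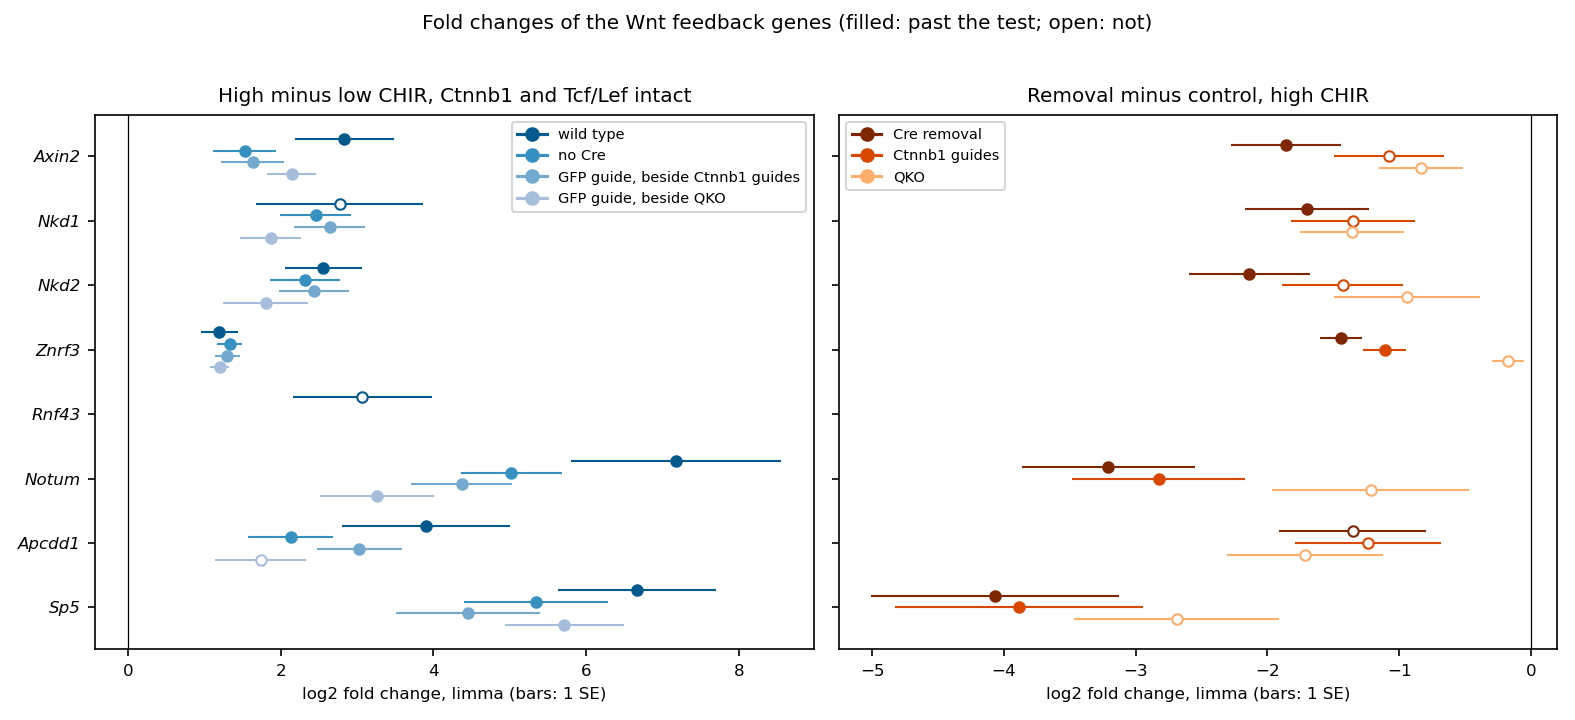
Fitted log2 fold changes with 1 SE by limma (horizontal axis) of the tested genes, for high minus low CHIR in 4 control sets (left) and for removal minus control in high CHIR (right), with filled points past the test and open points not. All left-hand points are above 0 and all right-hand points below 0, with *Notum* and *Sp5* farthest from 0 on the left, and *Znrf3* at −1.44, −1.11 and −0.17 for Cre, *Ctnnb1* guides and QKO.

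Taken over the 3 removal experiments in high CHIR, an exact permutation test within each experiment (720 arrangements, two-sided, 15088 genes) called 3 of the 5 feedback genes that pass the filter without high-CHIR libraries lower, against 5.22% of all genes, and called *Sp5*, which does not. The mean log2 difference was −3.55 for *Sp5*, and the others were *Nkd1* (−1.47), *Axin2* (−1.26) and *Znrf3* (−0.91), each with an adjusted p of 0.0332 at 0.00278, the smallest unadjusted p possible. *Notum* (−2.42, adjusted p = 0.0556), *Apcdd1* (−1.44, adjusted p = 0.0556) and *Nkd2* (−1.50, adjusted p = 0.0645) missed the threshold, although all 7 genes were lower in 3 of 3 experiments. *Znrf3* ranged from −1.44 to −0.17 between experiments, and missed the threshold after a different scaling between libraries (adjusted p = 0.0566). Without any 1 experiment none of the 7 was called, and the smallest p the arrangements allowed was then 0.0167 or 0.0556. The same test in low CHIR called 0.00% of all genes, with 1218 genes at an unadjusted p below 0.05, among them *Znrf3* (−0.33, p = 0.0389 by exact permutation, adjusted p = 0.561). This test uses the same high-CHIR control libraries as the CHIR comparison above, so the pair are not independent.

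Divided by exon length, which allows levels to be compared between genes, *Znrf3* was the most abundant feedback transcript in every group except wild-type high CHIR. In wild-type low CHIR it stood at 219.6 ± 42.8 normalized counts per kilobase (SD, n = 3), ahead of *Nkd1* at 30.5 ± 1.6, *Axin2* at 24.3 ± 4.9 and *Nkd2* at 18.7 ± 5.7. *Apcdd1* (2.81), *Rnf43* (2.52), *Sp5* (1.25) and *Notum* (0.877) followed. The gap below *Znrf3* and that below *Nkd2* were wider than the spread, while *Axin2* did not differ from its neighbours in the order beyond the spread, nor did *Apcdd1* from *Rnf43* or *Sp5* from *Notum*. In high CHIR without Cre, *Znrf3* was at 562 ± 95.5 (n = 2), *Nkd1*, *Nkd2* and *Axin2* lay between 47.0 and 61.6 within each other's spread, *Sp5* and *Notum* were at 19.0 and 18.4, *Apcdd1* was at 8.49 and *Rnf43* at 2.10. Wild-type high CHIR gave *Notum* 740 ± 1208 and *Nkd1* 738 ± 1162 per kilobase, above *Znrf3* at 504 ± 110, and both SDs exceed their means because of replicate 3.

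**Figure D5:**
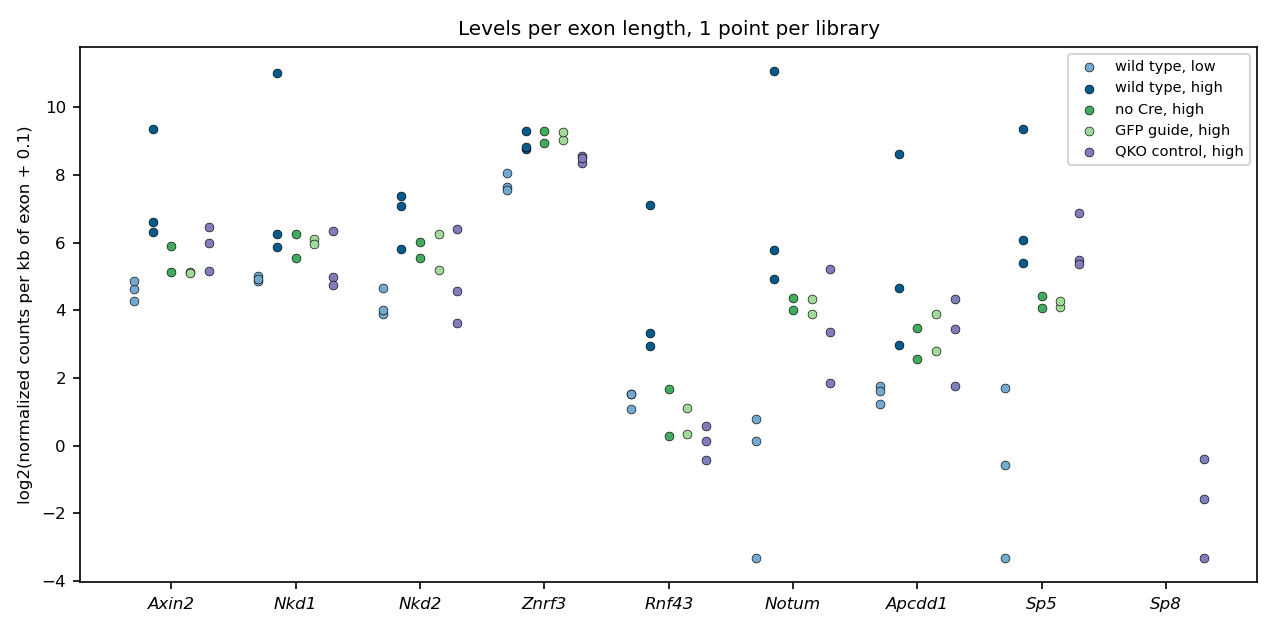
Levels per exon length, as log2(normalized counts per kilobase + 0.1) on the vertical axis, of each gene in wild-type low and high CHIR and in the high-CHIR controls of the removal experiments (1 point per library). *Znrf3* is the highest gene in each group except wild-type high CHIR, where 1 library carries *Nkd1* and *Notum* above it, and groups of different tables were scaled separately.

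The paralogue pairs differed in balance. Per kilobase, *Znrf3* was between 9.63 times *Rnf43* (wild-type high CHIR) and 891 times (Cre, high CHIR), with 87.1 in wild-type low CHIR. The lowest ratio rests on replicate 3 and was 50.2 without it. Group means of *Rnf43* outside wild type were at most 2.10 per kilobase. *Nkd1* and *Nkd2* were close, with a ratio between 1.03 and 1.63 in every group except wild-type high CHIR at 6.19, where replicate 3 had 9479 of *Nkd1* and 652.4 of *Nkd2* and the ratio without it was 0.602. *Nkd2* is thus one of the 2 genes, with *Znrf3*, that this library does not set apart. In *Sp5* and *Sp8* the balance was one-sided, since *Sp8* had at most 3.12 normalized counts in any library in which it was measured.

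Other genes of the pathway put these values in context. Their wild-type fold changes include high-CHIR replicate 3, which was far above the other high-CHIR libraries for *Wif1* and *Fzd10*. Of 9 other Wnt targets tested in wild-type NPCs, 4 were called higher and none lower in high CHIR (median log2 fold change 1.63 against 0.01 for all genes): *Wif1* (4.11, adjusted p = 0.0276), *Lef1* (3.90, adjusted p = 0.000882), *Bambi*, a decoy receptor of the TGFβ family (3.03, adjusted p = 0.000153), and *Tcf7* (2.58, adjusted p = 0.000733). None of the 9 destruction complex genes tested was called, by limma, and their median was −0.20. Of 15 tested receptors and R-spondin partners, 2 were higher, the Frizzled receptors *Fzd10* (6.53) and *Fzd6* (4.67), and 5 were lower, among them *Rspo1*, an agonist that blocks Znrf3 and Rnf43 (−3.43), and *Fzd4* (−2.55). *Porcn*, which attaches the lipid that Notum removes, was higher (1.57, adjusted p = 0.0121), 1 of 5 cytoplasmic and secretion partners tested. *Sp9* was the 1 of 5 other Sp factors called (1.46, adjusted p = 0.0136). After β-catenin removal in high CHIR the other Wnt targets went both ways, with 2 of 9 higher and 3 lower with Cre (median −0.08) and 1 higher and 3 lower with guides (median −0.04). *Myc* was higher in both (1.43 and 1.28, adjusted p = 0.00768 and 0.0254) and *Dkk1* with Cre (2.50, adjusted p = 0.0441), while *Tnfrsf19* was lower in both (−2.50 and −1.42, adjusted p = 0.000292 and 0.0249). *Lef1* fell by 3.34 with Cre (adjusted p = 0.000384) and by 2.62 with guides (adjusted p = 0.00435), and *Tcf7* by 1.55 and 1.39 (adjusted p = 0.0141 and 0.0394), by limma. *Lef1* and *Tcf7* are also targets of the QKO guides, so their levels there are no readout.

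The genes whose pattern was most like *Axin2* were ranked among 14951 genes by the lowest of 3 Pearson correlations with *Axin2* on log2(normalized count + 1), over the 9, 16 and 11 libraries of the 3 tables. *Rnase12* came first (0.913), followed by *Pnp* (0.896), *Bmpr1b* (0.895), *Slc16a1* (0.890), *Sorbs2* (0.890), *Frem2* (0.883), *Lef1* (0.878), *Tagln3* (0.873), *Tes* (0.872) and *Cdh4* (0.872). The feedback genes themselves ranked lower, with *Notum* at 13, *Znrf3* at 18, *Nkd1* at 19, *Nkd2* at 50, *Sp5* at 80 and *Apcdd1* at 103. These libraries share doses, knockouts and, within a table, the scaling, so the coefficients describe a common pattern across groups. Without wild-type high-CHIR replicate 3 the wild-type coefficient was 0.602 for *Pnp* and between 0.736 and 0.940 for the other 9.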

How the data were processed

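Libraries of cultured mouse NPCs were made with a low-input kit that does not mark strand. The authors aligned reads with STAR to combined mouse and human assemblies (mouse build GRCm38), counted uniquely aligned reads per gene with featureCounts, and deposited 3 tables of normalized counts, a signal in which each gene count is divided by 1 size factor per library. In every library 100% of values were whole multiples of 1 read (tolerance 0.01), so reads were recovered for count tests, except in 3 libraries whose step was too close to 1 for that check: GFP guide low-CHIR replicate 1, Cre high-CHIR replicate 1 and QKO control high-CHIR replicate 2. Another 8 tables, which hold the authors' own fold changes and p-values beside 62 columns of library values and means, were not used. Tables were scaled separately, so tests were made within a table.

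Genes averaging 10 or more normalized counts over a table were tested on log2(normalized count + 1) with limma 3.58.1 in R 4.3.3, with all groups of a table in 1 fit and Benjamini-Hochberg adjustment over all genes tested. A gene was called at an adjusted p below 0.05 with a log2 change of 0.5 or more in either direction. This scale understates changes of low genes. Over several sets of libraries, exact permutation tests exchanged libraries within a set and called genes on the adjusted p alone. With 3 libraries against 3, no single exact test could reach the threshold. Alternatives were edgeR 4.0.16 and DESeq2 1.42.0 on recovered reads, other pseudocounts, no filter, TMM rescaling, fits on the compared groups alone, the replicate number as a block, and leaving out each library. The fits were tested on simulated data.

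Same-numbered libraries of the QKO table deviated together (correlations 0.369, 0.249 and 0.365 between QKO and control in high CHIR, and 0.531, 0.341 and 0.63 between doses in control), so its numbers were taken as pairs. This pairing comes from the data, not from the labels. It was used in the block fits alone, and the main fits and permutation tests left it out. In the *Ctnnb1* table the correlations between removal and control were 0.463 with Cre and 0.297 with guides in high CHIR. In low CHIR they were 0.334 and 0.491. The main fits of that table used no block either. In wild type the correlations were 0.147, 0.0393 and 0.0946, and the numbers were not taken as pairs. All 9 feedback genes were named in each comparison, and from each other pathway list at most 4 genes, those with the largest called change between low and high CHIR in wild type. *Six2*, *Emcn*, *Lyz2*, *Myc*, *Dkk1*, *Tnfrsf19* and other marker or pathway genes outside that rule were named after their values were seen. The feedback genes and the lists were chosen with earlier results of these data known. Promoter windows came from a RefSeq table.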

Additional observations from a re-analysis of the deposited data

How the results depend on the processing

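Of the single-gene values in the 20 comparisons, 617 kept their direction and side of the threshold when a library or set was left out, 7 gained a call, 64 lost one and 24 changed sign, and under the other settings 953 held, 24 gained a call, 31 lost one and 9 changed sign. A value without an adjusted p by DESeq2 was counted as not called. The CHIR responses of *Notum* in wild type and of *Sp5* without Cre are for that reason among the lost calls. With 2 or 3 libraries a group, single libraries decided several counts of feedback genes called. Leaving out 1 library gave 3 to 7 for the CHIR response of wild-type NPCs, 0 to 1 for no against low CHIR, 1 to 6 with Cre in high CHIR, 1 with the *Ctnnb1* guides in high CHIR, 1 to 5 without Cre and 3 to 5 with the GFP guide for the CHIR response, 0 for the CHIR response with *Ctnnb1* guides, 0 to 2 for that in QKO and 0 to 1 for QKO in high CHIR. *Notum* or *Sp5* fell under the filter in some fits of the removal experiments, and the cause of the changes was not tested.

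Other settings moved these counts: between no and low CHIR, 1 gene was called by DESeq2 and 1 in the fit on the compared groups alone. With Cre in high CHIR, edgeR called 1 gene and DESeq2 called 3. With the *Ctnnb1* guides in high CHIR, a pseudocount of 0.5 gave 1, the compared groups alone gave 5 and DESeq2 gave 5. With Cre in low CHIR, DESeq2 called 1. The CHIR response with *Ctnnb1* guides had 0 calls without a filter, 0 in the compared groups alone and 0 by edgeR. That in QKO had 1 with a pseudocount of 5, 1 in the compared groups alone and 1 by edgeR. The Cre interaction had 1 with a pseudocount of 5, and QKO in high CHIR had 1 with a pseudocount of 5 and 1 by DESeq2. The permutation test of removal in high CHIR called 0 genes without the Cre set, 0 without the guide set and 0 without the QKO set, where fewer arrangements were left.

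The replicate block gave 3 genes for QKO in high CHIR. In the *Ctnnb1* table, where only 2 libraries a group carry a number, the block gave 1 with Cre in low CHIR (*Axin2*, adjusted p = 0.032 by limma), 2 for the CHIR response with *Ctnnb1* guides and 2 for the Cre interaction. In high CHIR the block also called *Apcdd1* with Cre (adjusted p = 0.0335) and *Nkd2* with guides (adjusted p = 0.00473), by limma. Over all genes the block raised the calls with Cre in high CHIR to 1718 higher and 921 lower from 990 and 462. With guides they rose to 1333 and 800 from 578 and 276.

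The differences that changed sign were not called, and most were small. The largest was the *Sp5* QKO interaction, −1.90 by limma. By DESeq2, *Nkd1* with Cre in low CHIR was −0.0104 and the *Sp5* QKO interaction 0.0279. With *Ctnnb1* guides in low CHIR, *Axin2*, *Nkd2* and *Apcdd1* were 0.107, 0.381 and 0.348 by edgeR and 0.0924, 0.369 and 0.338 by DESeq2, fits that lack 1 control library. After TMM rescaling the *Nkd1* CHIR response in QKO was −0.0113. In the permutation test of removal in low CHIR, *Axin2* was 0.00175 without the Cre set, and *Nkd2*, *Notum* and *Apcdd1* were −0.0382, −0.279 and 0.091 without the QKO set. Leaving out 1 library gave, with Cre in low CHIR, *Nkd1* −0.541 to 0.566 and *Nkd2* −0.248 to 0.279. With guides in low CHIR it gave *Axin2* −0.771 to 0.202, *Nkd2* −0.543 to 0.36 and *Apcdd1* −0.317 to 0.306. For the CHIR response with Cre it gave *Nkd2* −0.094 to 0.433 and *Sp5* −0.597 to 1.95, and for the Cre interaction *Axin2* −0.726 to 0.113. For QKO in low CHIR it gave *Znrf3* −0.00679 to 0.188, *Nkd2* −0.0187 to 0.596 and *Axin2* −0.0648 to 0.641, and for the CHIR response in QKO *Nkd1* −0.271 to 0.275. *Notum* and *Sp5* fell under the filter in some of these fits and have no value there. At 0 to 3 reads, *Sp8* could not be compared at this depth.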
